A study of Mus musculus with 20 samples.

Results

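A set of 9 genes that carry the insulin signal from its receptor to glucose uptake, or that mark the metabolic action of insulin, was followed across mouse aortas. They were Insr, Irs1, Irs2, Pik3r1, Akt2, Slc2a4, Slc2a1, Hk2 and Pde3b. Their probe sets were those annotated with exactly 1 gene symbol, that symbol being 1 of the 9, which gave 19 of the 45101 probe sets on the array and 9 of the 18193 genes that carry a probe set with 1 symbol. Each gene is represented by its brightest probe set, and all 9 reached the level for testing, a log2 signal of 8.73 averaged over the arrays. The series compared aortas after the nuclear receptor PPARγ had been interfered with or activated. For interference, adult mice with a knock-in of the P465L mutation at the endogenous PPARγ locus, which the labels call dominant negative, were set against wild-type littermates (3 arrays each), both on standard chow. The labels do not say whether the knock-in mice carried 1 or 2 mutant copies, and give no strain for either group. For activation, adult C57BL/6J mice ate chow with rosiglitazone, a thiazolidinedione that binds PPARγ, at 3 mg/kg/day for 2 days (3 arrays), 3 mg/kg/day for 14 days (3 arrays), 10 mg/kg/day for 2 days (3 arrays) or 10 mg/kg/day for 14 days (2 arrays), against mice on chow alone (3 arrays). RNA of 8 aortas was pooled for each of the 20 arrays, so p-values measure the spread between pools and not between mice.

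Insulin binds the receptor encoded by Insr, a tyrosine kinase that phosphorylates the docking proteins Irs1 and Irs2. These recruit phosphoinositide 3-kinase through its regulatory subunit Pik3r1, and the lipid it makes brings the kinase Akt2 to the membrane, where it is activated. In fat and striated muscle, Akt2 then sends the glucose transporter GLUT4, encoded by Slc2a4, to the cell surface. Slc2a1 encodes GLUT1, the transporter of basal glucose uptake in many cell types, and Hk2 encodes the hexokinase that traps glucose inside insulin-responsive cells. Pde3b encodes a phosphodiesterase that insulin switches on in fat cells, where it lowers cyclic AMP and so restrains the breakdown of stored fat. Thiazolidinediones are known as insulin sensitizers.

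The values below are microarray signals on a linear scale, each array scaled by the authors to the same trimmed mean of 1500, and log2 values are of the signal plus 72. Replicate arrays of a group had a Pearson's r of 0.964 to 0.988 with each other, taken over genes, which are no replicates. The aorta also carries fat in its outer coat. Smooth muscle markers had a mean log2 signal of 14.71 to 14.84 on P465L arrays, 14.85 to 14.97 on wild-type littermate arrays, 14.61 to 15.05 on rosiglitazone arrays and 14.71 to 14.84 on chow arrays, which fits the labelled tissue. Of 14 listed fat cell markers 11 were measured and 10 reached the level for testing. Lep did not, with a lowest signal of 15.8. The mean log2 signal of the 11 markers was 12.59 to 13.59 on P465L arrays, 13.12 to 13.67 on wild-type littermate arrays, 12.64 to 13.89 on rosiglitazone arrays and 12.42 to 13.02 on chow arrays. In bulk RNA, fewer cells of a type and less RNA per cell cannot be told apart.

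The members lie on 7 mouse chromosomes in GRCm38.p6, the assembly of the reference gene table. Insr is on chromosome 8 (3150922 to 3279649), as is Irs2 (10984681 to 11008929). Irs1 is on chromosome 1 (82233105 to 82291439), Pik3r1 on chromosome 13 (101680761 to 101768217) and Akt2 on chromosome 7 (27591552 to 27640826), which also holds Pde3b (114415222 to 114537938). Slc2a4 is on chromosome 11 (69942286 to 69948216), Slc2a1 on chromosome 4 (119108745 to 119137330) and Hk2 on chromosome 6 (82725025 to 82774454).

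Promoter sequences from RefSeq were matched for 6 of the 9 members, namely Irs1, Irs2, Pik3r1, Akt2, Slc2a1 and Hk2. The 120 bases before the start are shown for the 2 docking proteins, for both annotated starts of Pik3r1, the only member called in a test over all groups, and for Hk2. Bases run 5′ to 3′ on the strand of the gene, and all 5 sequences are from the minus strand of GRCm38.p6. Capitals mark the E-box CACGTG, the GC box GGGCGG and TGTTTTG, a form of the insulin response sequence. TGTTTTG was added to the search after these promoters had been read.
Irs1, chr1:82291440-82291559: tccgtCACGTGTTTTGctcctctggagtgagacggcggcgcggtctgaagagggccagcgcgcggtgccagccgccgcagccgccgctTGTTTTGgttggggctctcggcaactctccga
Irs2, chr8:11008930-11009049: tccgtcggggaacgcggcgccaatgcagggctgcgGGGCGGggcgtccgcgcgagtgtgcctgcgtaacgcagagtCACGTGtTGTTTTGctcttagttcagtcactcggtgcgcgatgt
Pik3r1, upstream start, chr13:101768218-101768337: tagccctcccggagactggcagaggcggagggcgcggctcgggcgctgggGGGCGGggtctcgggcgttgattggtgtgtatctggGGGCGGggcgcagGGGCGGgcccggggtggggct
Pik3r1, downstream start, chr13:101692631-101692750: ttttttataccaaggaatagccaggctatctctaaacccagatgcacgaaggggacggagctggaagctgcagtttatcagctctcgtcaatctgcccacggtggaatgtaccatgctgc
Hk2, chr6:82774455-82774574: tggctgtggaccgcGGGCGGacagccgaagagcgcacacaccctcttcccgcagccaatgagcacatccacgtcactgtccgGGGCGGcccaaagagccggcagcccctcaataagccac

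Both docking protein promoters held an E-box with TGTTTTG beside it. In Irs1 the E-box covered bases -115 to -110 from the start and overlapped TGTTTTG at -111 to -105, with a second TGTTTTG at -32 to -26. In Irs2 the E-box covered -44 to -39 and TGTTTTG -37 to -31. Over the 250 bases before the start, on both strands, 6.02% of 32851 RefSeq promoters held the E-box, 5.56% held TGTTTTG and 0.295% held both. Because TGTTTTG was chosen from these promoters, its presence in them is no test against these shares. The GC box, held by 32.7%, occurred 4 times before the upstream start of Pik3r1, 3 times for Hk2 and 2 times each for Irs1 and Slc2a1. The PPAR direct repeat, 2 copies of AGGTCA with 1 base between them, was held by 0.0335% and was in none of the 10 promoters of these 6 genes, which says only that these letters are not in this window. A single AGGTCA, held by 14.0%, and the FOXO site TGTTTAC, held by 3.17%, were also searched for and were in none of them. A match is a description of the letters and not a binding site.

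No messenger RNA of the 9 genes passed the test in any of the 10 comparisons of groups, while 1 passed a test over all 7 groups. In limma, 0 of the 9 members passed an adjusted p of 0.05 in any of the 10 comparisons of groups, and 1 of 9, Pik3r1, passed in the F test over all 7 groups. Among all 11081 genes tested, 0.018% passed between P465L and wild-type littermates and 0.433% between the average of the 4 rosiglitazone groups and chow. For 3 mg/kg/day 0% passed at both times, and for 10 mg/kg/day 0.505% passed at 2 days and 0.271% at 14 days. The F test called 12.5% of genes, so 1 member of 9 is near that background. At an unadjusted p under 0.05 stood 0 of 9 members between P465L and wild-type littermates and 1 of 9 between the rosiglitazone average and chow, against 7.43% of all genes for P465L and 14.2% for rosiglitazone. The median log2 fold change of the members was -0.017 for P465L over wild-type littermates, beside 0.0058 over all genes, and -0.0037 for the rosiglitazone average over chow, beside -0.021 over all genes.

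**Figure D1:**
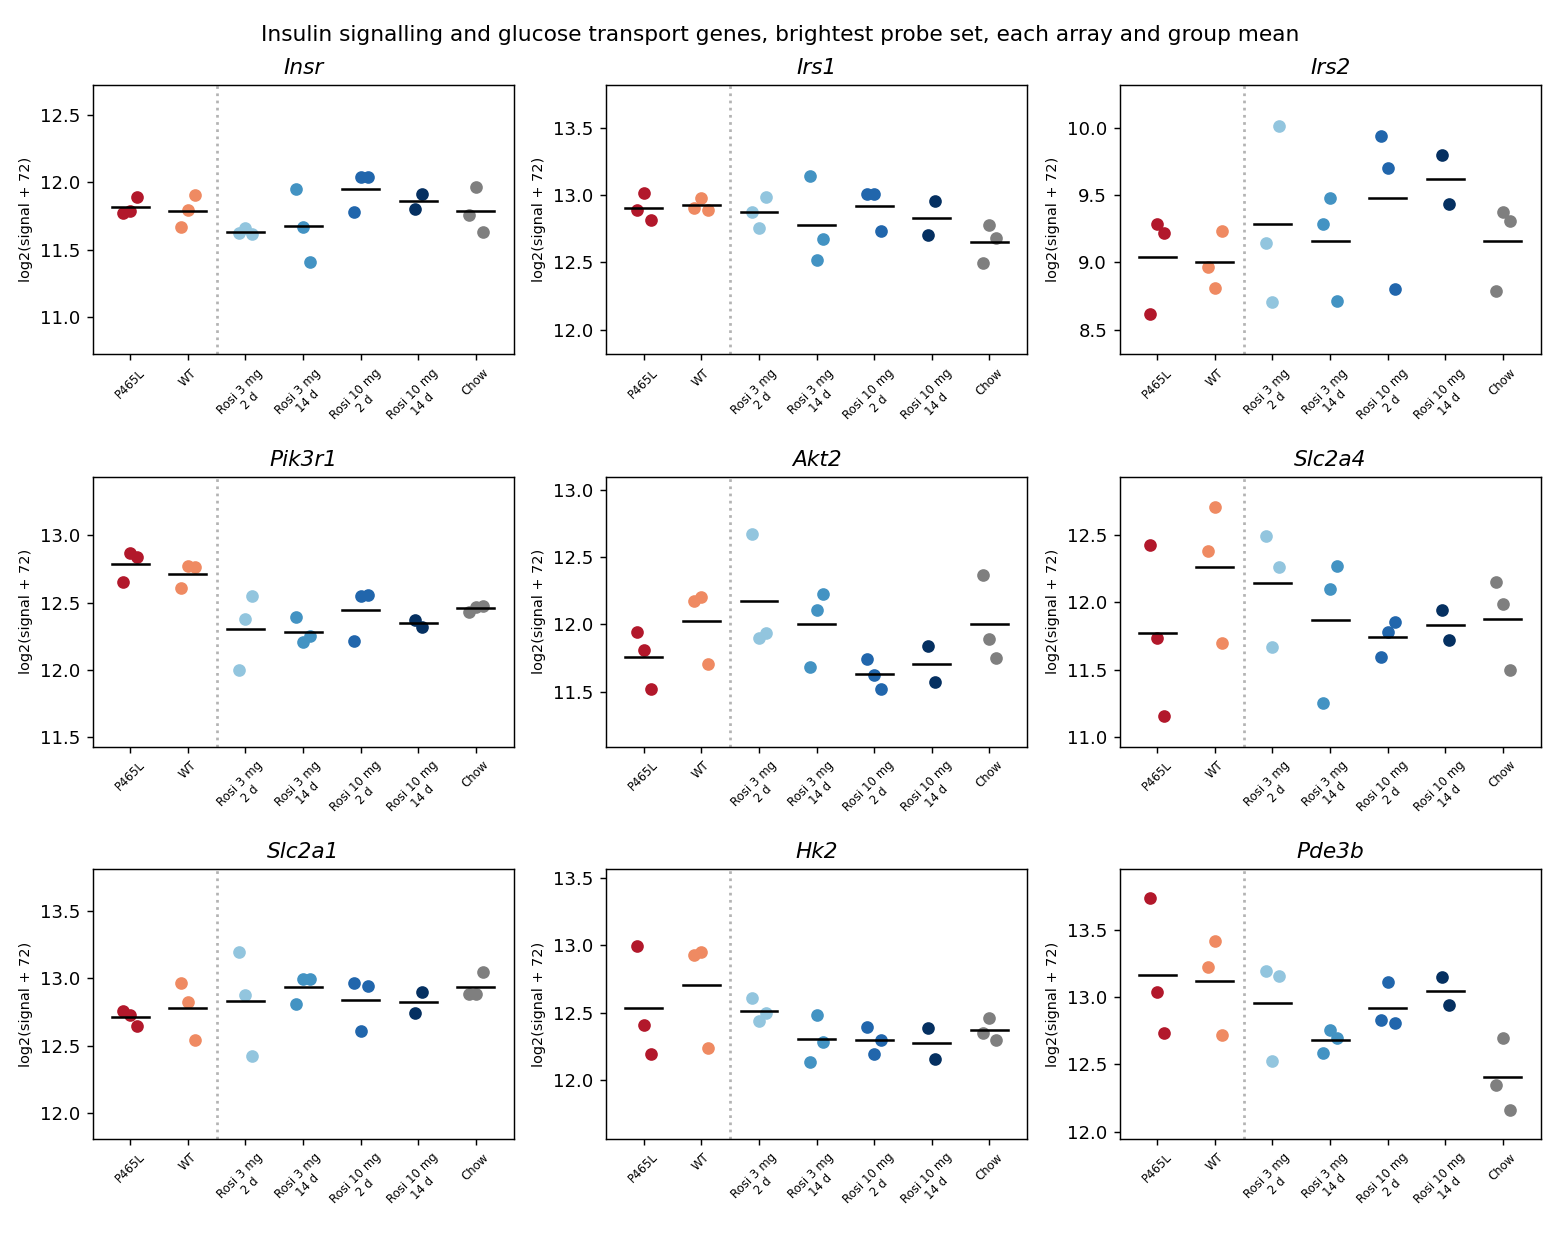
Signals of the 9 genes on each array, as log2 of the signal plus 72 of the brightest probe set. Points are arrays (3 per group, 2 for 10 mg/kg/day for 14 days), bars are group means, every panel spans the same range of log2 units, and a dotted line parts the knock-in experiment from the rosiglitazone experiment. For Pik3r1 the 6 arrays left of the line lie above the 14 others, and for Pde3b the chow group has the lowest mean.

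Pde3b, the fat cell phosphodiesterase, had the largest difference of the members between rosiglitazone and chow, though it did not pass the test. Its signal was 9286, 5820 and 9048 at 3 mg/kg/day for 2 days, 6059, 6855 and 6554 at 3 mg/kg/day for 14 days, 7214, 8795 and 7109 at 10 mg/kg/day for 2 days and 9003 and 7806 at 10 mg/kg/day for 14 days, against 5149, 6575 and 4510 on chow. Both 10 mg/kg/day groups lay above all chow arrays, while each 3 mg/kg/day group had at least 1 array below the highest chow array. Averaged over the 4 groups, Pde3b was 1.41-fold chow on the log2 scale used here (log2 fold change 0.50, SE 0.18, 95% interval 0.13 to 0.86), with an unadjusted p of 0.0105 and an adjusted p of 0.202 in limma. By group the log2 fold change over chow was 0.55 at 3 mg/kg/day for 2 days, 0.27 at 3 mg/kg/day for 14 days, 0.51 at 10 mg/kg/day for 2 days and 0.64 at 10 mg/kg/day for 14 days, with adjusted p of 0.469, 0.770, 0.278 and 0.291 in limma. These 4 comparisons share the chow arrays.

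Markers of brown fat cells, of which 8 of 9 were measured and all 8 reached the level for testing, were also higher on rosiglitazone than on chow. Their mean log2 signal was 12.20 to 13.41 on the 11 rosiglitazone arrays and 11.33 to 12.07 on the chow arrays, with no overlap, and all 8 had a log2 fold change above 0 for the rosiglitazone average (median 0.97) although 0 were called. Of the general fat cell markers, 9 of the 10 tested had a log2 fold change above 0 (median 0.43) and 0 were called. The part of these cells in the Pde3b difference was not tested. Across the 7 groups, mean Pde3b signal was highest in P465L aortas (9534 ± 3571, SD, n = 3), followed by wild-type littermates (8989 ± 2135, n = 3), 10 mg/kg/day for 14 days (8404 ± 847, n = 2), 3 mg/kg/day for 2 days (8052 ± 1936, n = 3), 10 mg/kg/day for 2 days (7706 ± 945, n = 3), 3 mg/kg/day for 14 days (6489 ± 402, n = 3) and chow (5411 ± 1058, n = 3). The mean ± SD of each group overlapped with that of its neighbours in this order.

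In the knock-in experiment Pde3b did not separate the genotypes. It was 13552, 8324 and 6725 on P465L arrays and 9475, 10839 and 6653 on wild-type littermate arrays. The log2 fold change was 0.05 (SE 0.22, 95% interval -0.41 to 0.51, adjusted p = 0.972 in limma). The P465L arrays spanned a wider range than any other group, from near the lowest wild-type littermate array to above the highest. Most brown fat markers were lower in P465L aortas, with a median log2 fold change of -0.92, 2 of 8 above 0 and 1 called lower. Their mean log2 signal overlapped between the genotypes, at 11.32 to 12.82 on P465L arrays and 12.34 to 13.27 on wild-type littermate arrays. The part of these cells in the Pde3b values was not tested.

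Pik3r1, the regulatory subunit that links the docking proteins to the lipid kinase, was the only member to pass the F test over the 7 groups. Its signal was 6388, 7398 and 7259 on P465L arrays and 6187, 6914 and 6892 on wild-type littermate arrays. In the rosiglitazone experiment it ranged from 4015 to 5961 over the 11 treated arrays, with a median of 5236, and was 5444, 5606 and 5609 on chow. All 6 arrays of the knock-in experiment thus lay above all 14 of the rosiglitazone experiment, a separation that 3.28% of tested genes showed in one direction or the other. The F test over the 7 groups, which called 12.5% of all tested genes, gave an adjusted p of 0.0309 in limma. This call depended on the processing and on single arrays. The same test gave an adjusted p of 0.0638 with the mean of a gene's probe sets and 0.0559 with no variance trend. The adjusted p was 0.0945 without P465L replicate B, 0.0829 without P465L replicate C, 0.0605 without WT replicate B and 0.0566 without WT replicate C. It was also above 0.05 without replicate B or C at 3 mg/kg/day for 14 days (0.0525 and 0.0509) or replicate B at 10 mg/kg/day for 14 days (0.0505). The 2 experiments used different mice, and the ratio of 3' to 5' signal of Gapdh, a measure of RNA integrity, was 0.80 to 0.94 in the knock-in experiment and 0.84 to 0.98 in the rosiglitazone experiment. The part of RNA quality was not tested. By mean ± SD, Pik3r1 followed the order P465L (7015 ± 548), wild-type littermates (6664 ± 413), chow (5553 ± 95), 10 mg/kg/day for 2 days (5529 ± 728), 10 mg/kg/day for 14 days (5133 ± 146), 3 mg/kg/day for 2 days (5062 ± 968) and 3 mg/kg/day for 14 days (4922 ± 352), with the spread of neighbours apart only between wild-type littermates and chow.

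Within each experiment Pik3r1 did not pass the test. Its log2 fold change was 0.07 for P465L over wild-type littermates (SE 0.12, adjusted p = 0.904 in limma) and -0.11 for the rosiglitazone average over chow (SE 0.10, adjusted p = 0.662). The 14-day groups were both below all chow arrays, at 5320, 4652 and 4795 for 3 mg/kg/day and 5236 and 5030 for 10 mg/kg/day. Their log2 fold changes over chow were -0.17 and -0.11, with adjusted p of 0.736 and 0.805 in limma. Arrays that do not overlap with chow in either direction were found for 13.6% of genes in the 3 mg/kg/day group at 14 days, where 1 of 9 members did so, and for 35% of genes in the 10 mg/kg/day group at 14 days, where the group has only 2 arrays and 3 of 9 members did so.

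The receptor gene Insr was 3423, 3460 and 3736 on P465L arrays and 3182, 3475 and 3763 on wild-type littermate arrays, for which limma gave 0.03 on the log2 scale (SE 0.13, adjusted p = 0.972). It ranged from 2643 to 4143 over the rosiglitazone arrays, median 3443, and from 3097 to 3939 on chow, a log2 fold change of -0.0037 for the average (SE 0.10, 95% interval -0.22 to 0.21, adjusted p = 0.991). Insr arrays thus overlapped in both comparisons. By group mean it was highest at 10 mg/kg/day for 2 days (3907 ± 401, SD, n = 3) and lowest at 3 mg/kg/day for 2 days (3109 ± 57, n = 3).

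Of the docking proteins, Irs1 was 7500, 8209 and 7139 on P465L arrays and 7597, 7982 and 7505 on wild-type littermate arrays (log2 fold change -0.017, SE 0.13, adjusted p = 0.986 in limma). Over the rosiglitazone arrays Irs1 ranged from 5800 to 8949, median 7427, and on chow from 5691 to 6954. The average log2 fold change was 0.20 (SE 0.11, 95% interval -0.026 to 0.42, adjusted p = 0.419). Of the 11 treated arrays 6 were above the highest chow array and the ranges overlapped. By group mean, Irs1 was highest in wild-type littermates (7695 ± 253) and lowest on chow (6380 ± 640). Irs2, the dimmest member, was 321, 551 and 522 on P465L arrays and 428, 376 and 530 on wild-type littermate arrays, for which limma gave 0.04 on the log2 scale (SE 0.32, adjusted p = 0.988). It ranged from 345 to 963 over the rosiglitazone arrays, median 620, and from 370 to 592 on chow, with an average log2 fold change of 0.23 (SE 0.26, adjusted p = 0.749). At 10 mg/kg/day for 14 days, 819 and 620 both exceeded the highest chow array (log2 fold change 0.46, adjusted p = 0.642). Irs2 signals lie close to the level for testing, with group means from 719 ± 141 at 10 mg/kg/day for 14 days to 445 ± 78 in wild-type littermates, and its SE was the largest of the members in both comparisons.

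Akt2, the kinase of the pathway most tied to glucose transport, had its lowest group means at the higher dose, none past the test. Its signal was 6445, 3752 and 3858 at 3 mg/kg/day for 2 days, 3222, 4335 and 4711 at 3 mg/kg/day for 14 days, 3365, 3093 and 2858 at 10 mg/kg/day for 2 days and 3597 and 2977 at 10 mg/kg/day for 14 days, against 5217, 3735 and 3367 on chow. The 3 arrays at 10 mg/kg/day for 2 days were all below chow, and limma gave -0.37 on the log2 scale (SE 0.20, adjusted p = 0.391). Arrays that do not overlap with chow were found for 23.7% of genes in that group and for 2 of 9 members, Akt2 and Pde3b. For the average of the rosiglitazone groups the log2 fold change of Akt2 was -0.13 (SE 0.16, adjusted p = 0.790). On P465L arrays Akt2 was 3872, 3513 and 2861, against 4539, 4641 and 3264 on wild-type littermate arrays, where limma gave -0.27 on the log2 scale (SE 0.20, adjusted p = 0.760). The brightest Akt2 probe set is of a kind whose probes can match transcripts of more than 1 gene.

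Slc2a4, which encodes the insulin-responsive transporter GLUT4, varied more between pools than between groups. It was 5427, 3328 and 2203 on P465L arrays, against 5253, 6607 and 3252 on wild-type littermate arrays. The log2 fold change of -0.49 (SE 0.30, 95% interval -1.12 to 0.14) was the largest of the members in that comparison and did not pass (adjusted p = 0.709 in limma). It ranged from 2362 to 5693 over the rosiglitazone arrays, median 3630, and from 2812 to 4470 on chow, a log2 fold change of 0.021 for the average (SE 0.24, 95% interval -0.48 to 0.52, adjusted p = 0.982). In both comparisons the ranges overlapped. Group means ran from 5037 ± 1688 in wild-type littermates to 3366 ± 315 at 10 mg/kg/day for 2 days. For P465L over wild-type littermates, 1 of 10 tested fat cell markers had a log2 fold change above 0 (median -0.40, 0 called), 2 of 8 brown fat markers did (median -0.92, 1 called lower) and 0 of 11 skeletal muscle markers did (median -1.28, 0 called). The mean log2 signal of the brown fat markers was 11.32 to 12.82 on P465L arrays and 12.34 to 13.27 on wild-type littermate arrays. That of the 13 skeletal muscle markers, of which Myh2 and Myh4 were below the level for testing, was 8.61 to 12.08 on P465L arrays and 10.39 to 12.82 on wild-type littermate arrays. The part of these cells in the Slc2a4, Akt2 and Hk2 values was not tested.

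Slc2a1, which encodes the basal transporter GLUT1, was 6850, 6709 and 6339 on P465L arrays and 7903, 7176 and 5898 on wild-type littermate arrays (log2 fold change -0.07, SE 0.15, adjusted p = 0.931 in limma). It ranged from 5426 to 9287 over the rosiglitazone arrays, median 7552, and from 7465 to 8395 on chow (log2 fold change -0.08, SE 0.12, adjusted p = 0.822). Hk2, the hexokinase of insulin-responsive tissue, was 8075, 5363 and 4621 on P465L arrays and 7720, 7863 and 4768 on wild-type littermate arrays (log2 fold change -0.18, SE 0.18, adjusted p = 0.817). The 3 highest Hk2 signals of all 20 arrays were thus 1 P465L and 2 wild-type littermate pools, while the other arrays of each genotype lay within the range of the rosiglitazone experiment. Hk2 ranged from 4435 to 6176 over the rosiglitazone arrays, median 5293, and from 4957 to 5568 on chow (log2 fold change -0.023, SE 0.14, 95% interval -0.32 to 0.28, adjusted p = 0.967). Its group means ran from 6784 ± 1747 in wild-type littermates to 4898 ± 559 at 10 mg/kg/day for 14 days, and those of Slc2a1 from 7778 ± 534 on chow to 6633 ± 264 in P465L aortas. For Slc2a4, Slc2a1, Hk2, Akt2, Irs1, Irs2 and Insr, the mean ± SD of each group overlapped with that of its neighbours in the order of means.

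**Figure D2:**
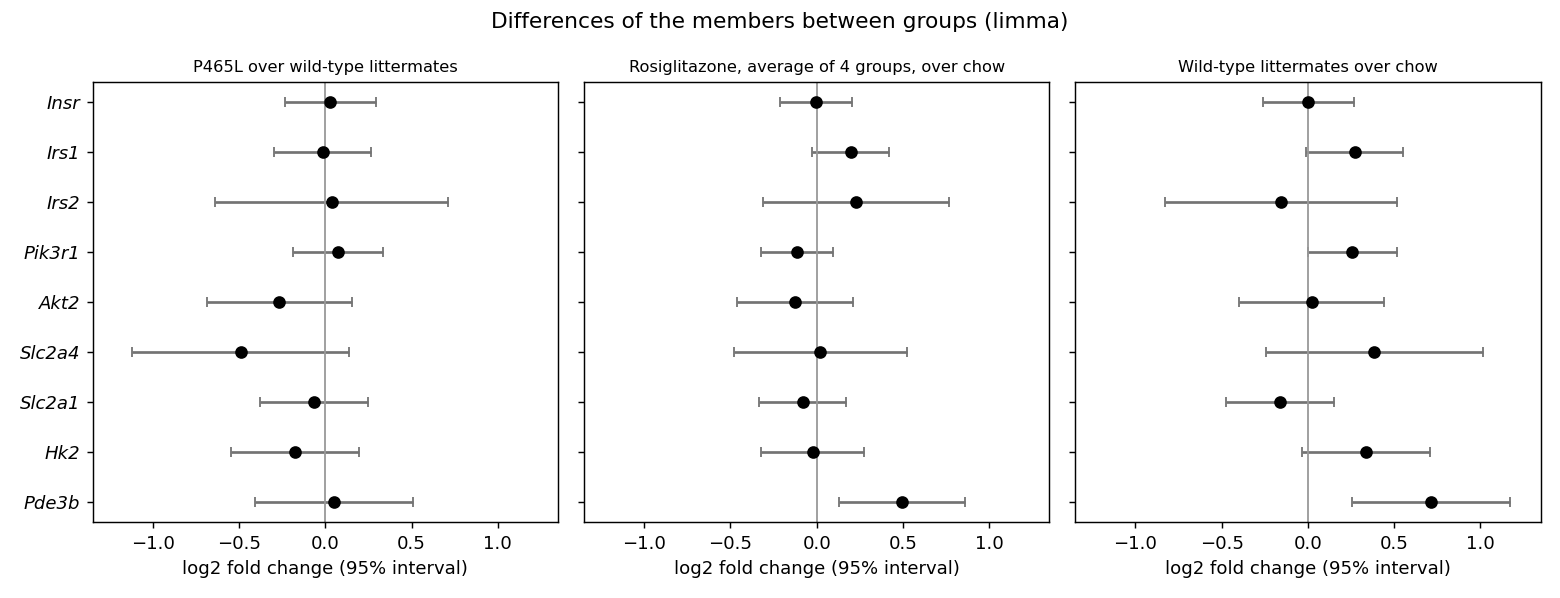
Log2 fold changes of the 9 genes with 95% intervals from limma, for P465L over wild-type littermates, the average of 4 rosiglitazone groups over chow, and wild-type littermates over chow. The interval excludes 0 only for Pde3b, in the panels for rosiglitazone and for wild-type littermates over chow, and no adjusted p was under 0.05.

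Dose, time and their interaction gave 0 calls among the 9 members, and each also called 0% of all tested genes. The higher dose stood above the lower for Insr (log2 fold change 0.25, SE 0.10) and below it for Akt2 (-0.42, SE 0.15), with unadjusted p of 0.0152 and 0.0120 and adjusted p of 0.314 and 0.297 in limma. Insr signals were 3443, 4134, 4143, 3508 and 3796 at 10 mg/kg/day, against 3081, 3175, 3071, 3889, 3181 and 2643 at 3 mg/kg/day, so the doses overlapped through 1 array at the lower dose. At an unadjusted p under 0.05 were 2 of 9 members and 12.7% of all genes. For 14 against 2 days the log2 fold changes of Hk2 and Slc2a1 were -0.12 (SE 0.13) and 0.042 (SE 0.11), both with an adjusted p of 0.999. The interaction was 0.41 for Pde3b (SE 0.33) and -0.13 for Insr (SE 0.19), with adjusted p of 0.964 and 0.965.

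The 2 untreated groups, wild-type littermates and chow mice, differed in more genes than the genotypes did, or rosiglitazone and chow. Wild-type littermates over chow called 6.49% of all tested genes and 0 of 9 members. Pde3b was nearest to the threshold, with 9475, 10839 and 6653 in wild-type littermates against 5149, 6575 and 4510 on chow, for which limma gave 0.71 on the log2 scale with an SE of 0.22 (adjusted p = 0.0553). With a replicate block the adjusted p was 0.0446. The call also turned without WT replicate C, where the log2 fold change was 0.91 and the adjusted p 0.0254. Pde3b, Irs1 and Pik3r1 were higher on all wild-type littermate arrays than on all chow arrays. Groups that do not overlap in either direction were found for 27.8% of genes, so 3 of 9 members is near that share. The log2 fold change was 0.27 for Irs1 (SE 0.13), 0.26 for Pik3r1 (SE 0.12), 0.34 for Hk2 (SE 0.18) and 0.39 for Slc2a4 (SE 0.30), with adjusted p of 0.235, 0.224, 0.273 and 0.489. Akt2 (0.022), Insr (0.0035), Irs2 (-0.15) and Slc2a1 (-0.16) also missed the threshold, with adjusted p of 0.577 or more. Of the fat cell markers, 9 of the 10 tested had a log2 fold change above 0 in wild-type littermates over chow (median 0.72, 2 called higher), and of the brown fat markers 8 of 8 did (median 1.11, 3 called higher). The mean log2 signal of the fat cell markers was 13.12 to 13.67 on wild-type littermate arrays and 12.42 to 13.02 on chow arrays, and that of the brown fat markers was 12.34 to 13.27 on wild-type littermate arrays and 11.33 to 12.07 on chow arrays. Neither list overlapped between the groups. Of the skeletal muscle markers 13 of 13 were measured and 11 reached the level for testing. All 11 had a log2 fold change above 0 (median 2.42, 0 called). The mean log2 signal of the 13 was 10.39 to 12.82 on wild-type littermate arrays and 8.05 to 11.33 on chow arrays. The ratio of 3' to 5' signal of Gapdh was 0.828, 0.795 and 0.82 on wild-type littermate arrays and 0.895, 0.96 and 0.9 on chow arrays. For Actb the groups overlapped, at 1.177, 1.219 and 1.22 on wild-type littermate arrays and 1.209, 1.215 and 1.185 on chow arrays. The part of these cells or of RNA quality in the Pde3b and other values was not tested.

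Other probe sets of the members were read for the same comparisons, with p-values adjusted over all probe sets. For Slc2a1 all 3 probe sets had a log2 fold change below 0 for P465L over wild-type littermates, but of unlike size. The probe set 1426599_a_at gave 3223, 3238 and 2954 on P465L arrays, all below the 5167, 4506 and 3832 on wild-type littermate arrays. Its log2 fold change was -0.50 (SE 0.15), with an unadjusted p of 0.0035 and an adjusted p of 0.712 in limma, while 1426600_at gave -0.22 (SE 0.14) and the brightest probe set -0.07. Genotypes that do not overlap in either direction were found for 14.3% of tested genes, read with their brightest probe set. For Slc2a4, the second probe set gave -0.42 (SE 0.27), close to the -0.49 of the brightest. Between rosiglitazone and chow the 2 probe sets of Slc2a4 differed in direction. The second averaged 1559 on rosiglitazone arrays (1102 to 2153) and 1723 on chow (1588 to 1887), while the brightest averaged 3864 and 3753. The Akt2 probe sets also ran one way, at -0.48 (SE 0.26) for 1421324_a_at and -0.23 (SE 0.19) for 1455703_at.

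Pik3r1 has 4 probe sets, and the 3 others gave log2 fold changes of -0.25, -0.25 and -0.16 for P465L over wild-type littermates, opposite in sign to the brightest, none past the threshold. For the rosiglitazone average they gave -0.19, -0.24 and -0.32 over chow, the same sign as the brightest. The 3 others did not behave alike between the experiments. The arrays of the knock-in experiment all lay above those of the rosiglitazone experiment with 1451737_at, at 871 to 1365 on P465L arrays and 866 to 1436 on wild-type littermate arrays, against 189 to 752 on rosiglitazone arrays and 585 to 828 on chow. With 1425515_at the signal was 2155 to 2859 on P465L arrays and 2409 to 3151 on wild-type littermate arrays, above the 1866 to 2115 on chow but overlapping the 1090 to 2494 on rosiglitazone arrays, and wild-type littermates over chow gave 0.52 on the log2 scale (SE 0.19, unadjusted p = 0.0138, adjusted p = 0.201 in limma). Arrays overlapped with 1425514_at, at 2324 to 2907 on P465L arrays and 2832 to 3736 on wild-type littermate arrays, against 1965 to 3797 on rosiglitazone arrays and 3223 to 3464 on chow. Which start of Pik3r1 each probe set reads was not settled here. The other probe sets of Insr, 1450225_at and 1421380_at, averaged signals of 261 and 103 and lay below the level for testing.

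**Figure D3:**
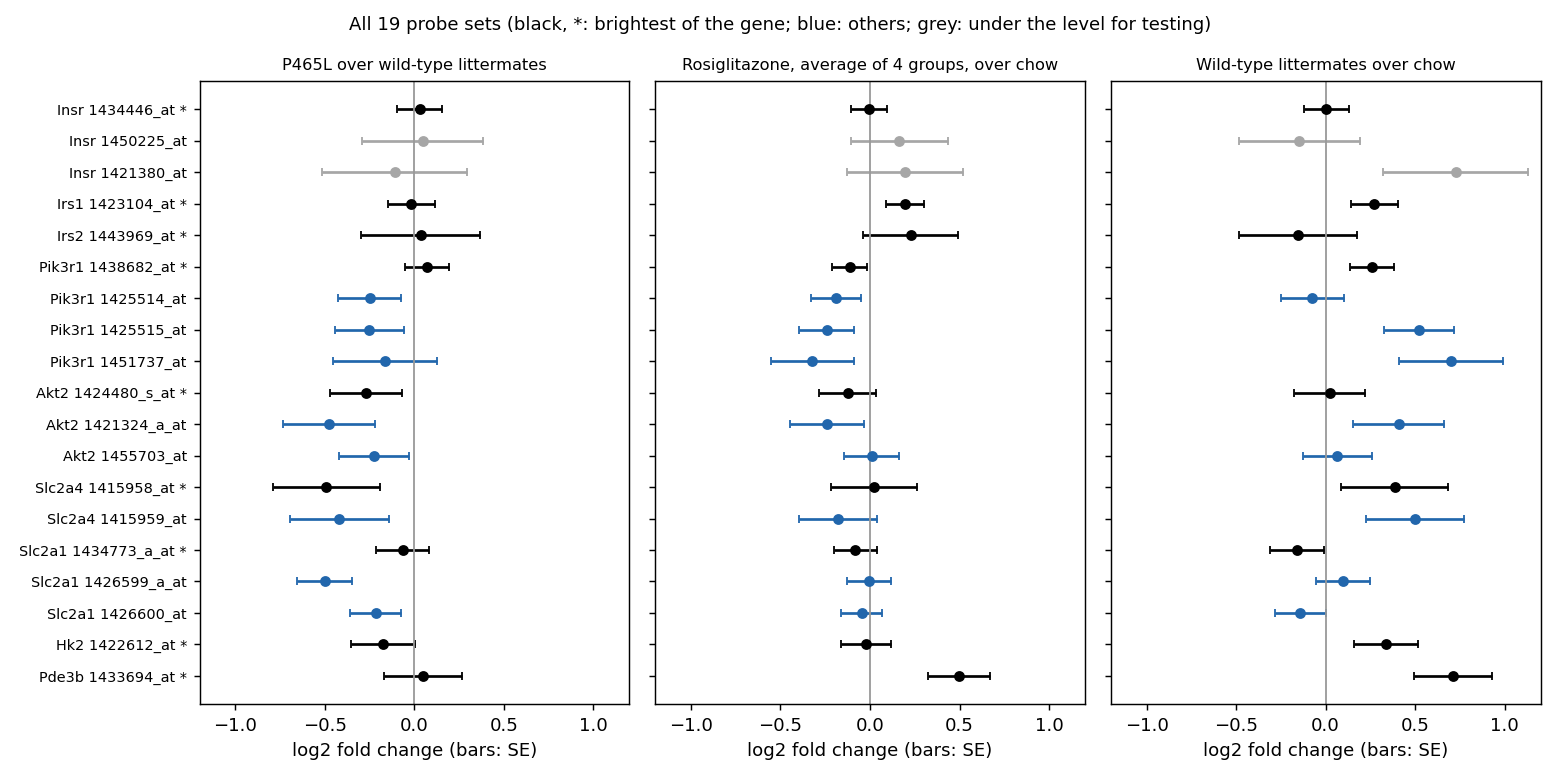
Log2 fold changes with SE of all 19 probe sets, by gene, for P465L over wild-type littermates, the rosiglitazone average over chow, and wild-type littermates over chow. The brightest probe set of each gene is black with a star, the others are blue, and 2 Insr probe sets below the level for testing are grey. The 3 Slc2a1 probe sets spread from -0.50 to -0.07 in the first panel.

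Slc2a4, Pde3b, Hk2 and Akt2 followed the fat cell markers from pool to pool. How many of all tested genes did so was not computed, so the relation is not shown to be particular to these genes. For Slc2a4, Pearson's r was 0.894 with the mean of the 11 fat cell markers over the 20 arrays and Spearman's rho 0.907, both with a permutation p of 1e-05, the smallest that 100000 permutations can give, and an adjusted p of 9e-05 over the 9 members. The permutations shuffled arrays across groups, so these p-values also take in differences between groups and experiments. Once group means were removed, r was 0.918. Without the 2 arrays farthest from the median, r was 0.866. It was 0.989 within the 6 arrays of the knock-in experiment and 0.867 within the 14 of the rosiglitazone experiment. None of the 9 members is itself on the marker list. The wide spread of Slc2a4 between pools thus ran alongside that of fat cell transcripts, and the part of fat cells in the lower Slc2a4 mean of P465L aortas was not tested.

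Pde3b had an r of 0.742 with the fat cell markers and a rho of 0.696 (permutation p = 0.00014 and 0.00097, adjusted 0.00057 and 0.00291), Hk2 an r of 0.733 and a rho of 0.705 (permutation p = 0.00019 and 0.00063, adjusted 0.00057 and 0.00283) and Akt2 an r of 0.688 and a rho of 0.669 (permutation p = 0.00064 and 0.00172, adjusted 0.00144 and 0.00387). Without the 2 farthest arrays r was 0.713 for Pde3b, 0.697 for Hk2 and 0.513 for Akt2. Once group means were removed it was 0.839, 0.733 and 0.801. Within the knock-in experiment r was 0.823, 0.928 and 0.926 for these genes in turn, and within the rosiglitazone experiment 0.676, 0.637 and 0.661. The other 5 members, Insr, Irs1, Irs2, Pik3r1 and Slc2a1, had r from -0.29 to 0.117, with an adjusted p of 0.388 or more. Within the experiments Pik3r1 ran opposite to the fat cell markers, with an r of -0.728 in the knock-in experiment and -0.502 in the rosiglitazone experiment. In the knock-in and the rosiglitazone experiment r was -0.677 and -0.272 for Insr, -0.813 and 0.0806 for Irs2, 0.379 and -0.197 for Irs1, and 0.65 and 0.0889 for Slc2a1.

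Brown fat markers, added to these correlations after the data had been seen, gave an r of 0.744 for Slc2a4 (rho 0.716, adjusted permutation p 0.0018) and 0.691 for Pde3b (rho 0.713, adjusted 0.00288). Hk2 had an r of 0.53 (adjusted 0.0464, but 0.0566 for its rho of 0.523) and Akt2 one of 0.488 (adjusted 0.0646). Without the 2 farthest arrays r was 0.642 for Slc2a4 and 0.643 for Pde3b. Within the knock-in experiment r was 0.972 for Slc2a4, and 0.588 within the rosiglitazone experiment. For Pde3b, r was 0.722 within the knock-in experiment and 0.878 within the rosiglitazone experiment. Skeletal muscle markers gave no adjusted permutation p under 0.05. The highest r, 0.577 for Hk2, was 0.219 without the 2 farthest arrays, 0.875 within the knock-in experiment and -0.0816 within the rosiglitazone experiment. Slc2a4, Akt2 and Pde3b had an r with the skeletal muscle markers of 0.964, 0.85 and 0.816 within the knock-in experiment. Within the rosiglitazone experiment these were -0.149, 0.0303 and -0.0925. In the knock-in pools Slc2a4 thus ran alongside fat cell and skeletal muscle markers alike. In all, 27 such relations were computed, 9 for each of 3 marker lists.

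**Figure D4:**
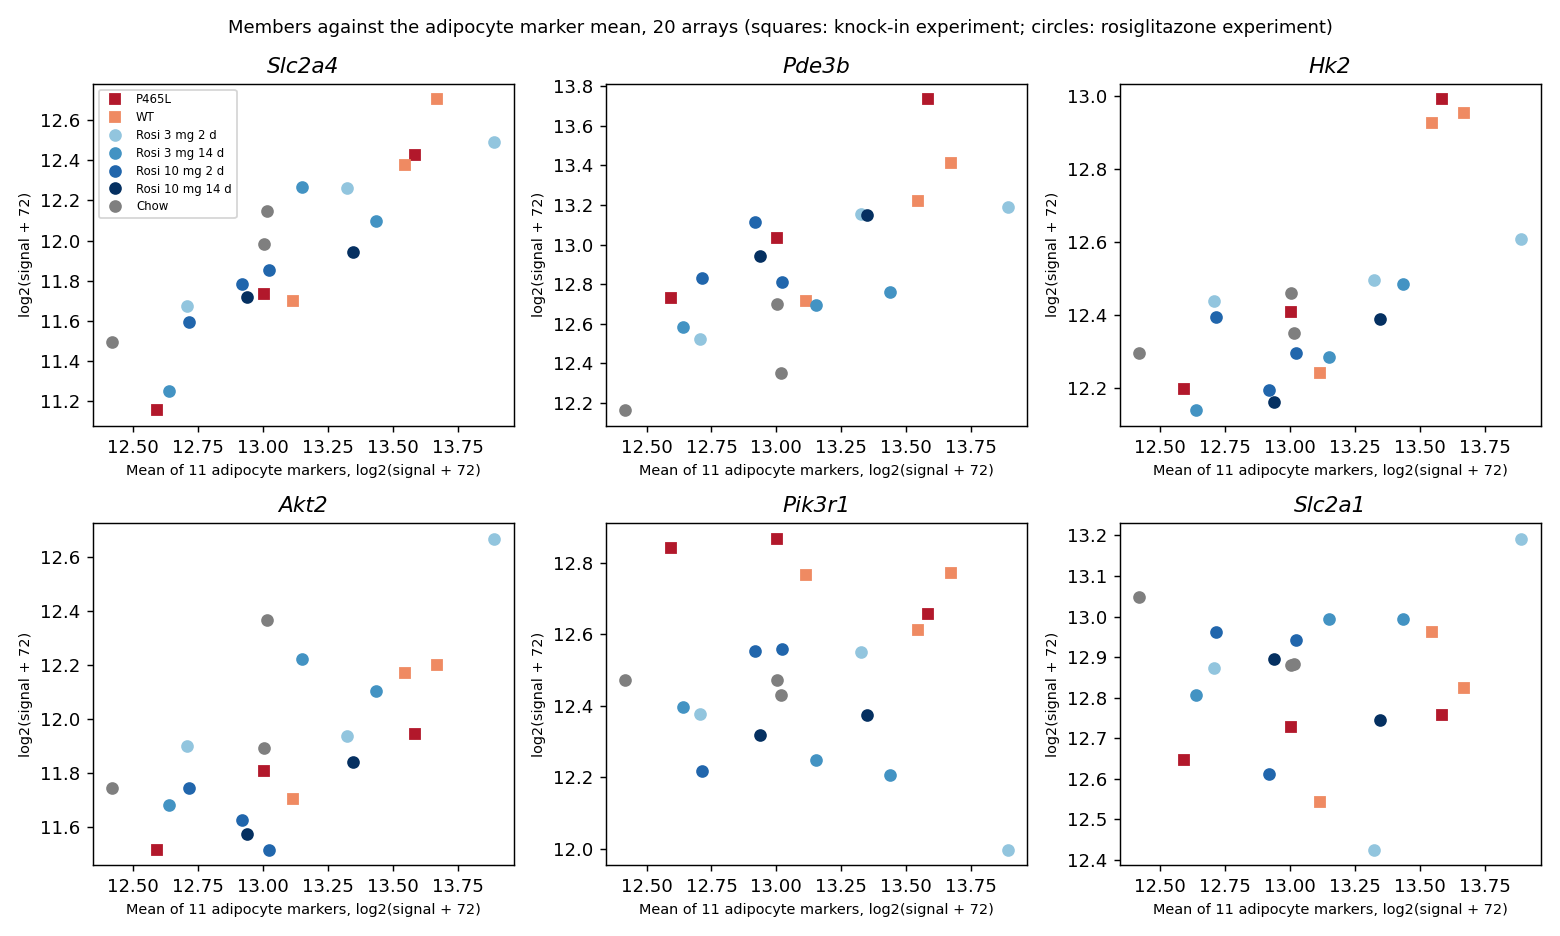
Log2 signals of 6 members against the mean log2 signal of 11 fat cell markers on the same array. Squares are the knock-in experiment, circles the rosiglitazone experiment, and colours the groups. Slc2a4 is higher where the markers are higher in both experiments (r of 0.989 and 0.867), while over the 20 arrays r is -0.119 for Pik3r1 and 0.117 for Slc2a1.

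The genes whose log2 values were most like those of each member over the 20 arrays were found by Pearson's r, as a description in which all genes share the same arrays and pools. For Slc2a4 these were Pdk2, a kinase that inhibits pyruvate dehydrogenase (r of 0.917), Cebpa, a transcription factor of fat cell formation (0.907), and Oplah (0.906). Nearest to Pde3b were Vegfa, the vascular growth factor (0.947), Pex11a, a peroxisome protein (0.937), and Mtx2 (0.903). For Hk2 they were Pfkl, the liver-type phosphofructokinase of glycolysis (0.909), Got1, an aminotransferase (0.892), and Nudt7 (0.875). Akt2 was nearest to Psmd8, a proteasome subunit (0.896), Mfn2, which fuses mitochondria (0.891), and Sh3glb2 (0.888). Pik3r1 was nearest to Ppp4r3b (0.907), the kinase Prkd3 (0.906) and the phospholipase Plcb1 (0.898), and Slc2a1 to Mvb12a, Bola2 and Pink1 (each 0.825). The likeness was lower for Insr, with Inpp5f (0.800), Ptprb (0.779) and Zfp667 (0.772), for Irs1, with Zfp24 (0.736), Dio2 (0.707) and Azi2 (0.694), and for Irs2, with Slc45a2 (0.769), Ppp1r13l (0.750) and Slc30a3 (0.730).

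Among the members, Slc2a4 correlated with Hk2 (r of 0.779), Akt2 (0.768) and Pde3b (0.601) over the 20 arrays, and more closely with Pde3b (0.841) once group means were removed. Pik3r1 ran opposite to Slc2a1, at -0.653 over the arrays and -0.773 once group means were removed. The receptor and docking protein genes had r from 0.177 to 0.338 with one another.

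The wider pathway was read from 6 lists of 164 genes in all, of which 151 had a probe set with 1 symbol and 135 reached the level for testing, 126 of them not members. Between P465L and wild-type littermates 0 of the 126 were called, beside 0.018% of all tested genes, with a median log2 fold change of -0.013 beside 0.0058 for all genes. For the rosiglitazone average 1 of 126 (0.79%) was called, beside 0.433% of all tested genes, with a median of -0.033 beside -0.021. Each single rosiglitazone group, the dose, the time and the interaction called 0 of 126.

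The gene called was Prkar2b, which encodes a regulatory subunit of the kinase that cyclic AMP activates and that Pde3b therefore restrains. Its signal was 8160, 4578 and 10093 at 3 mg/kg/day for 2 days, 4588, 7700 and 6503 at 3 mg/kg/day for 14 days, 6425, 8939 and 6664 at 10 mg/kg/day for 2 days and 9747 and 7557 at 10 mg/kg/day for 14 days, against 3717, 4082 and 1817 on chow. All 11 treated arrays were above the chow arrays, a separation from chow that 2.07% of tested genes showed in one direction or the other. The log2 fold change was 1.24 (adjusted p = 0.0349 in limma). The brown fat markers separated the same arrays, at 12.20 to 13.41 on rosiglitazone arrays and 11.33 to 12.07 on chow arrays with 8 of 8 above 0, and their part in the Prkar2b difference was not tested. Prkar2b was read with a probe set whose probes can match more than 1 gene. Prkar2b was 8999, 4720 and 3855 on P465L arrays and 7870, 8699 and 4632 on wild-type littermate arrays, where the genotypes overlapped. In the same list, which held 18 non-members, Pde3a, the sister enzyme of Pde3b, had -0.25 and Prkar1b -0.16 for the rosiglitazone average. For P465L over wild-type littermates the extremes were Lipe, the hormone-sensitive lipase (-0.79), and Pde4a (-0.34) on the low side and Pde4b (0.34) and Prkar1b (0.27) on the high side, none called.

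From the receptor to AKT, 0 of 31 non-members were called for P465L over wild-type littermates (median log2 fold change 0.042) and 0 for the rosiglitazone average (-0.0019). The extremes for P465L were Pik3cd, a catalytic subunit of the lipid kinase (0.55), Rheb, which activates mTOR complex 1 (0.30), Tsc2, which restrains it (-0.49), and Rptor, a subunit of it (-0.46). For rosiglitazone they were the kinases Gsk3a (0.40) and Sgk1 (0.38), and Akt1s1 (-0.35) and Akt1 (-0.27). Adjusted p was 0.128 or more for these 8 values.

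A list of 23 genes, most of them known to brake insulin signalling, had 0 called in either comparison, with medians of 0.0004 for P465L and -0.058 for rosiglitazone. Socs3, a feedback inhibitor of cytokine and insulin receptors, stood at 0.66 and the AKT phosphatase Phlpp1 at 0.19 for P465L over wild-type littermates, with the adaptor Sh2b1, which is known to enhance insulin receptor signalling and is thus no brake, at -0.41 and its relative Sh2b2 at -0.36. For rosiglitazone over chow Sh2b2 stood at 0.40, the ubiquitin ligase Cblb at 0.32, the AKT phosphatase Phlpp2 at -0.22 and the inositol phosphatase Inpp5k at -0.20. Of 26 non-members that move GLUT4 vesicles, 0 were called, with medians of -0.025 for P465L and -0.092 for rosiglitazone. Beside Slc2a4 itself, the extremes for P465L were Myo5a, a myosin motor (0.36), Ehbp1 (0.30) and Exoc7, of the exocyst (-0.35). Those for rosiglitazone were Tbc1d4, the AKT substrate that holds GLUT4 vesicles back (0.29), Ralgapa2 (0.24), Trip10 (-0.32) and the fusion protein Stx4a (-0.27).

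Glucose transporters and hexokinases other than the members gave 0 calls of 13 in both comparisons, with medians of -0.11 for P465L and -0.011 for rosiglitazone. The extremes were Arrdc4 (0.54), Slc2a3, which encodes GLUT3 (0.18), and Slc2a8 (-0.27) for P465L, and Slc2a10 (0.14), Txnip, which restrains glucose uptake (0.099), Hk1 (-0.17) and Slc2a8 (-0.15) for rosiglitazone. Glycolysis gave 0 calls of 15, with medians of -0.19 for P465L and -0.057 for rosiglitazone. There the enolase Eno3 stood lowest in both, at -0.52 for P465L and -0.39 for rosiglitazone, followed by Pfkl (-0.41) for P465L and the enolase Eno2 (-0.38) for rosiglitazone. The highest were Pfkfb2 (0.24) and Pfkp (0.047) for P465L, and Pfkfb3 (0.17) and Ldhb (0.11) for rosiglitazone.

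Between the untreated groups, wild-type littermates over chow, 13 of the 126 were called in limma, 5 higher and 8 lower, beside the 6.49% of all genes. Lower in wild-type littermates were the lipid kinase subunits Pik3cd (log2 fold change -0.74, adjusted p = 0.00901) and Pik3r2 (-0.47, adjusted p = 0.0232), Akt1 (-0.53, adjusted p = 0.0101) and the transcription factor Foxo3 that AKT inhibits (-0.54, adjusted p = 0.0303). The vesicle protein Vamp2 (-0.90), Socs7 (-0.64) and the phosphodiesterases Pde4b (-0.67) and Pde5a (-0.65) were also lower. Higher were Mlxipl, the glucose-sensing transcription factor ChREBP (1.24, adjusted p = 0.0216), Prkar2b (1.15), Pde7b (0.64), Txnip (0.54) and the sorting protein Gga2 (0.31). Beside these calls, 2 fat cell markers and 3 brown fat markers were called higher in the same comparison, with list medians of 0.72 and 1.11, and their part in these calls was not tested. The mice and the handling of the 2 experiments cannot be told apart in this comparison.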

How the data were processed

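Messenger RNA of 20 pools of 8 aortas was measured on Affymetrix mouse GeneChip arrays. The deposited values are intensity values, linear signals per probe set that the authors made with MAS5, per the submitters' processing notes, whose version is not given in the sources used here. Tested on the files, they show scaling of each array to a mean of 1500 after setting aside the lowest and highest 2% of probe sets, and median signals of 321 to 451. Dim MAS5 signals vary most on a log scale, so 72, the 20th percentile of all values, was added before log2.

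Each gene took its brightest probe set with 1 symbol, and 11081 genes reaching the 50th percentile were tested with limma 3.58.1 in R 4.3.3: a mean per group over all 20 arrays, eBayes with a trend, two-sided tests, Benjamini-Hochberg adjustment over all tested genes, calls at an adjusted p under 0.05. The number of arrays limits the precision. Correlations used 100000 permutations, two-sided (numpy 2.4.6, scipy 1.17.1). The script was tested on simulated data. Replicate letters did not pair arrays: deviations from group means had a median r of 0.025 (-0.301 to 0.358) over 57 same-letter pairs.

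The members, the gene and marker lists and the tests were chosen with earlier results of these data known. Genes named beside the members are every called gene of the lists, the 2 largest rises and falls per list in 2 comparisons, and the 3 genes most like each member. Alternatives were other offsets, quantile normalization, the mean of a gene's probe sets, no filter, no variance trend, array weights, each experiment alone, a replicate block and leaving out each array.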

Additional observations from a re-analysis of the deposited data

How the results depend on the processing

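Over the alternatives, 688 log2 fold changes of the members kept their direction and side of the threshold, 44 changed sign, none of them called, and 2, both of Pde3b in wild-type littermates over chow, passed it. With quantile normalization the rosiglitazone average was 0.023 for Insr and 0.0048 for Hk2. With the mean of a gene's probe sets it was 0.12 for Insr and -0.079 for Slc2a4, and Insr at 3 mg/kg/day for 2 days was 0.16. That setting also gave -0.012 for Insr and -0.15 for Pik3r1 in P465L over wild-type littermates, -0.024 for Slc2a1 over time and 0.098 for Insr in the interaction. Array weights gave 0.016 for Irs1 and -0.043 for Pde3b in P465L over wild-type littermates, and -0.045 for Insr in wild-type littermates over chow. The cause was not tested. Leaving out 1 array, the rosiglitazone average ranged from -0.081 to 0.089 for Insr, -0.25 to 0.057 for Akt2, -0.17 to 0.16 for Slc2a4 and -0.059 to 0.023 for Hk2. P465L over wild-type littermates ranged from -0.031 to 0.087 for Insr, -0.071 to 0.028 for Irs1, -0.087 to 0.25 for Irs2, -0.18 to 0.027 for Slc2a1 and -0.23 to 0.27 for Pde3b. The other ranges were -0.060 to 0.13 for Slc2a1 over time, -0.27 to 0.0064 for Insr in the interaction, and -0.074 to 0.096 for Insr and -0.11 to 0.20 for Akt2 in wild-type littermates over chow. With a replicate block, wild-type littermates over chow called 1 member, Pde3b (0.71, adjusted p = 0.0446 in limma), and it changed no other call; the letters did not pair the arrays. Leaving out 1 array gave 0 to 1 called members there and 0 to 1 in the F test, which called 0 with the mean of probe sets or with no variance trend. No other count of called members changed. Signals are in groups of 2 or 3 pools, and Irs2 lies near the level for testing.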
